A study of Mus musculus with 4 samples.

Results

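The genes described here are 39 genes of the autophagy machinery, taken by symbol from a count table of 38924 mouse genes: the kinases that start an autophagosome, the lipid kinase, lipid transfer and conjugation steps that build it, the Atg8 proteins and cargo receptors that fill it, and the transcription factors Tfeb and Tfe3. All 39 were found in the table. They were read in activated Treg and in resting Treg from mouse spleen, with 2 samples in each group. Treg, or regulatory T cells, carry CD4 and Foxp3 and restrain immune responses. The labels describe both populations as CD4+Foxp3+ and print the same surface gate for both, although the groups are named for different activation states. They describe the animals as independent and give no strain, age, genotype or treatment. RNA was read by sequencing after amplification with a low-input kit (SMART-seq v4), so counts are reads and not molecules.

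Autophagy encloses cytoplasm in a double membrane, the autophagosome, which then fuses with a lysosome. A kinase complex around Ulk1 starts the process, a class III PI3 kinase marks the membrane with the lipid PI3P, and a conjugation cascade attaches the Atg8 proteins (the LC3 and GABARAP families) to the membrane, where cargo receptors bind them. In mice, deletion of Atg5 or Atg7 in Treg is known to impair their survival and lineage stability, and Foxo factors are known to drive autophagy genes such as Gabarapl1, Map1lc3b and Bnip3 in mouse muscle.

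Library totals were 29332058 and 20282062 counts in activated A and B and 20699024 and 31851982 in resting A and B. The letters name the 2 libraries of a group and were not used to pair samples. Of the genes behind the sort, Cd44 was at 329 and 335 CPM in activated Treg and at 145 and 213 CPM in resting Treg, so this gene separated the groups despite the shared gate in the labels. CPM are counts scaled to a common library total. Foxp3 (37.5 and 36.7 CPM in activated Treg, 38.8 and 35.1 in resting Treg) and Cd4 were present in every library, and 10 Treg genes summed to 7088 and 9253 CPM in activated Treg and to 6607 and 7823 CPM in resting Treg. Markers of other cells were present too, and none of the markers was at 0 in all 4 libraries. A sum over 12 plasmacytoid dendritic cell markers was 1332 and 490.4 CPM in activated Treg, against 194 and 220.0 CPM in resting Treg, with 11 of the 12 higher in both activated libraries. For 10 conventional dendritic cell markers the sum was 232 and 62.1 CPM in activated Treg and 34.7 and 15.5 CPM in resting Treg, with 8 of the 10 higher in both. The sum over 12 macrophage and monocyte markers separated libraries rather than groups, with 696 CPM in activated A and 85.4 CPM in activated B, against 664 CPM in resting A and 21.2 CPM in resting B. The sum over 11 B cell and plasma cell markers was 104 and 131 CPM in activated Treg, against 58.1 and 97.4 CPM in resting Treg, with 2 of the 11 higher and 3 lower in both activated libraries. The sum over 8 CD8 T and NK cell markers was 216 and 230 CPM in activated Treg, against 96.3 and 155 CPM in resting Treg, with 5 of the 8 higher and 2 lower in both. Both sums thus lay higher in the activated libraries. The sum over 12 erythroid and granulocyte markers ran from 2.48 to 27.4 CPM. In such bulk samples fewer cells of a type and less RNA per cell cannot be told apart.

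As a set, the autophagy genes differed little between activated and resting Treg, with Gabarapl1 and Optn apart. Summed over all 39, their transcripts made up 2491 and 2581 CPM in activated Treg, against 2644 and 2553 CPM in resting Treg. Of the 39, 38 passed the filter on low counts; Wipi1, with 11 and 36 counts in activated Treg and 3 and 10 in resting Treg, did not. Of the 38, 18 had a log2 fold change (activated over resting) above 0 and 20 below 0, where 49.1% of all genes lay above and 50.9% below, and the median was -0.03, against -0.01 over all 14235 genes tested. In 34 of the 38 (89.5%) the log2 fold change was smaller than 0.5 in size, as it was in 74.1% of all genes tested. Only Gabarapl1 (1.26 ± 0.28, SE) and Optn (1.70 ± 0.53) exceeded 1 in size, 5.26% of the members, where 11.7% of all genes did. The median level was 37.2 CPM for the members tested and 17.3 CPM for all genes tested. These shares were not matched for level. The plot of CPM in each library shows the levels of the members, and the plot of fold changes their errors.

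**Figure D1:**
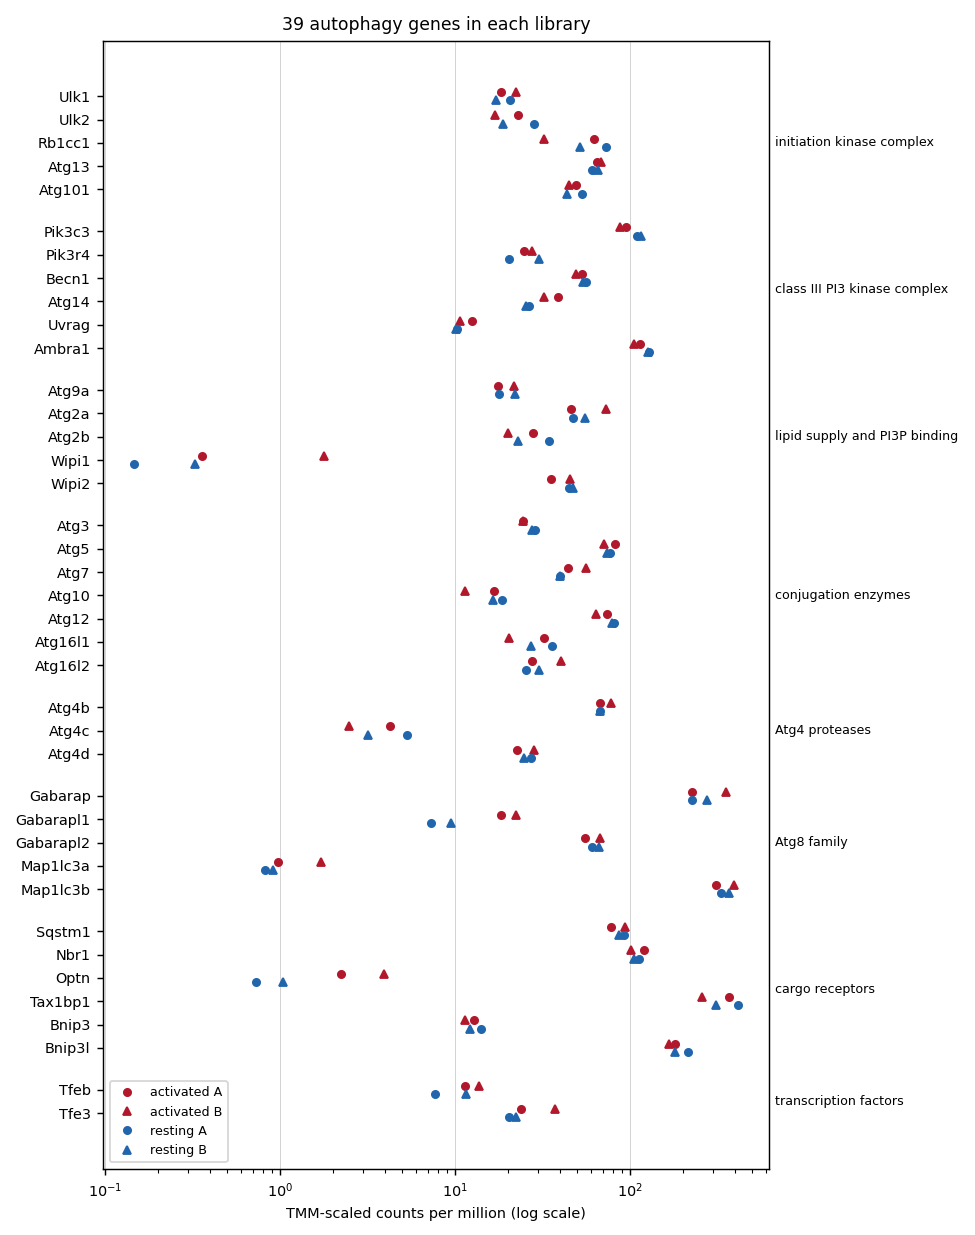
TMM-scaled CPM (log axis) of the 39 autophagy genes in each library, grouped by role; red symbols are activated Treg, blue symbols resting Treg, and circles and triangles are the A and B libraries of each group. In most rows the red and blue symbols mix. In 9 rows, Gabarapl1 and Optn among them, both red symbols lie to the right of both blue ones. In 6 rows both red symbols lie to the left. The 9 rows include Wipi1, which did not pass the filter on low counts.

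By edgeR's quasi-likelihood test adjusted over all genes, none of the 38 members passed in either direction, where 0% of all genes were called higher and 0% lower. The smallest adjusted p among the members was 0.328, for Gabarapl1. Before adjustment, edgeR's p was under 0.05 for 2 members that were higher, 5.26% of the 38 where 6.3% of all genes were, and for 0 that were lower, where 2.61% of all genes were (8.91% in either direction). DESeq2 called 1 member higher, Gabarapl1, and 0 lower, against 2.28% of all genes called higher and 0.829% lower; limma-voom called 0 members. Both activated libraries lay above both resting ones in 8 members (21.1%, against 19.8% of all genes) and below them in 6 (15.8%, against 17.4%), so that 36.8% of the members did not overlap, against 37.2% of all genes. These shares are close to the background and are no result about the members.

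**Figure D2:**
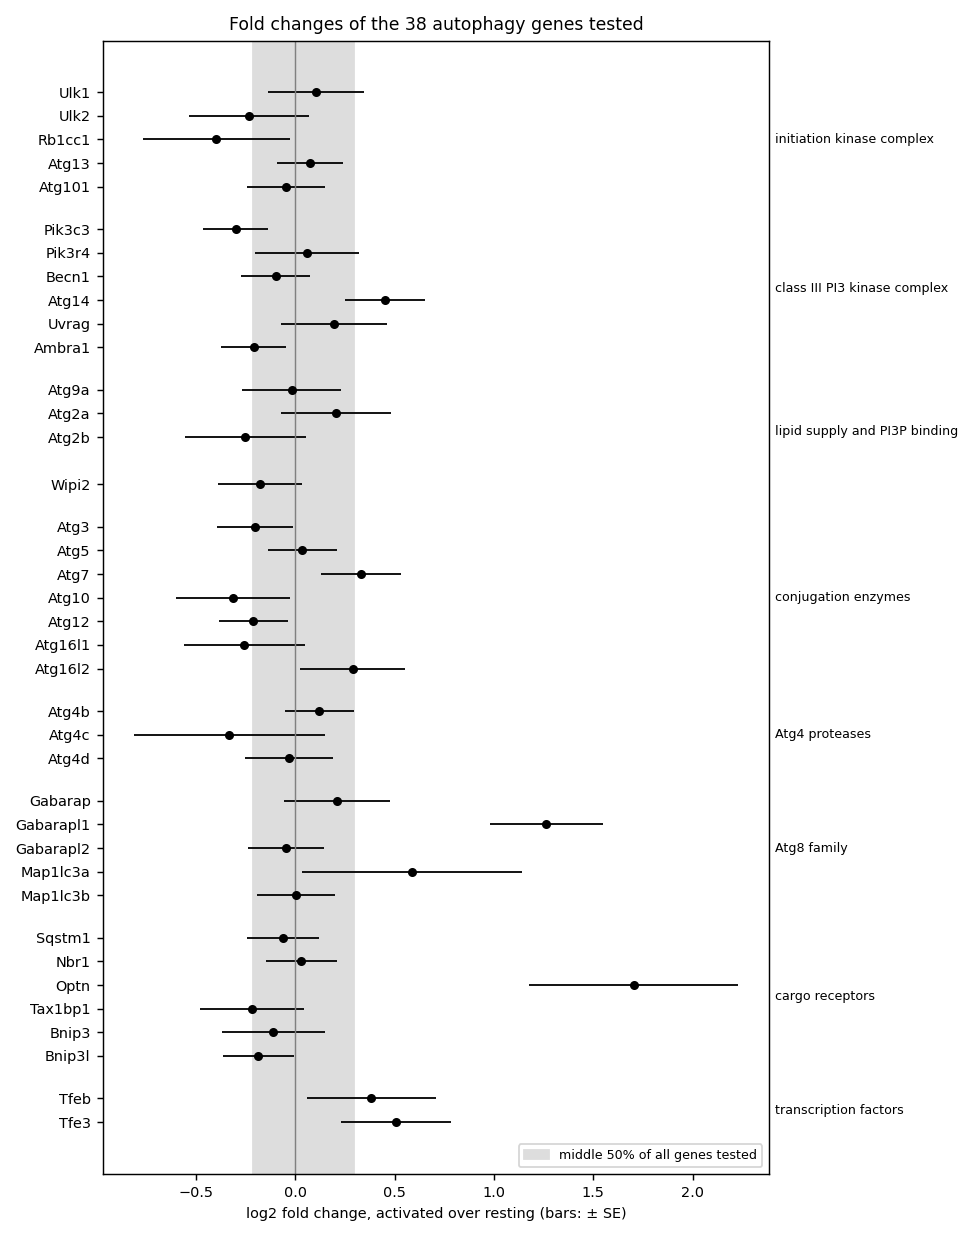
Log2 fold change, activated over resting, of the 38 autophagy genes tested, with bars of ± 1 SE from edgeR; the grey band spans the middle 50% of all 14235 genes tested. Gabarapl1 at 1.26 and Optn at 1.70 lie to the right of all other members, whose values run from -0.40 to 0.59.

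None of the 5 genes of the initiation kinase complex passed the test. Ulk1, the kinase that receives signals from mTORC1 and AMPK, was at 18.3 and 22.4 CPM in activated Treg and at 20.6 and 17.3 CPM in resting Treg. Its paralogue Ulk2 was at 22.9 and 16.9 CPM in activated Treg, against 28.2 and 18.7 CPM in resting Treg. For both kinases the groups overlapped. Rb1cc1, which encodes the scaffold FIP200, was at 62.3 and 32.3 CPM in activated Treg and at 73.1 and 51.9 CPM in resting Treg. Its log2 fold change of -0.40 ± 0.37 was the lowest among the members and ran from -0.94 (without activated A) to -0.0089 (without activated B), and the 2 activated libraries differed from each other by more than the groups did. The adaptors Atg13 (0.07 ± 0.17) and Atg101 (-0.05 ± 0.20) also overlapped between the groups. All 5 genes had an edgeR adjusted p between 0.936 and 0.994.

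In the class III PI3 kinase complex the subunits went different ways by small steps. Pik3c3, the catalytic subunit Vps34, was at 95.1 and 88.1 CPM in activated Treg, against 109 and 116 CPM in resting Treg, so the activated libraries were the lower ones. Atg14, the subunit that directs the kinase to forming autophagosomes, was at 38.9 and 32.5 CPM in activated Treg, against 26.6 and 25.6 CPM in resting Treg, with both activated libraries above. Uvrag, which takes the place of Atg14 in the endosomal form of the complex, was at 12.5 and 10.8 CPM in activated Treg and at 10.3 and 10.1 CPM in resting Treg. The fold changes were -0.30 ± 0.16 for Pik3c3, 0.45 ± 0.20 for Atg14 and 0.19 ± 0.27 for Uvrag on the log2 scale. The adjusted p from edgeR was 0.759 for Pik3c3 and 0.651 for Atg14, and from DESeq2 0.901 and 0.706, so neither passed. Becn1 (Beclin 1, -0.10 ± 0.17) and Ambra1, which binds Beclin 1 (-0.21 ± 0.16), were lower in both activated libraries by steps of about their own error, and Pik3r4, the regulatory subunit Vps15, overlapped (0.06 ± 0.26). In the annotation 43.9% of the exonic bases of Becn1 also lie in exons of Cntd1 on the opposite strand. Cntd1 was at 0.229 and 0.197 CPM in activated Treg and at 0.583 and 0.0979 CPM in resting Treg, far below Becn1, which had 53.2 and 49.4 CPM in activated Treg and 55.8 and 54.3 CPM in resting Treg.

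Genes for lipid supply and PI3P binding overlapped between the groups in all 4 members tested. Atg9a, the membrane scramblase, was at 17.7 and 21.8 CPM in activated Treg and at 17.8 and 22.2 CPM in resting Treg. The lipid transfer proteins Atg2a (0.20 ± 0.28) and Atg2b (-0.25 ± 0.30) and the PI3P binder Wipi2 (-0.18 ± 0.21) had errors as large as their fold changes or larger. Genes were compared per kilobase of merged exons, and such shares depend on the length taken for each gene. On this scale Atg2a made up 74.2% and 86.5% of the Atg2 pair in activated Treg, against 70.8% and 81.0% in resting Treg. Wipi2 outnumbered Wipi1 in every library on the same scale, with 97.6% and 91.5% of the pair in activated Treg and 99.2% and 98.4% in resting Treg. Of the exonic bases of Atg9a 31.8% also belong to Gm29253, a gene on the same strand.

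The conjugation enzymes were expressed in every library, and none passed. Atg7, the E1-like enzyme that activates both Atg12 and the Atg8 proteins, was at 44.3 and 56.0 CPM in activated Treg, against 40.0 and 39.8 CPM in resting Treg. Both activated libraries lay above both resting ones, with a log2 fold change of 0.33 ± 0.20 and an edgeR adjusted p of 0.810. Atg3, the E2-like enzyme for the Atg8 proteins, was at 24.4 CPM in both activated libraries, against 28.5 and 27.6 CPM in resting Treg (-0.20 ± 0.19). Atg12, the ubiquitin-like protein joined to Atg5, was at 73.9 and 63.9 CPM in activated Treg, against 80.8 and 78.9 CPM in resting Treg (-0.21 ± 0.17). Both lay lower in both activated libraries, and Atg5 (0.03 ± 0.17) and the second E2-like enzyme Atg10 (-0.31 ± 0.29) overlapped. Atg16l1, which places the Atg12-Atg5 conjugate on the membrane, was at 32.5 and 20.3 CPM in activated Treg and at 35.8 and 27.4 CPM in resting Treg. Its paralogue Atg16l2 was at 27.5 and 40.7 CPM in activated Treg and at 25.6 and 30.2 CPM in resting Treg. Within each group the library with more Atg16l1 had less Atg16l2. Per kilobase, Atg16l2 made up 49.1% and 69.5% of the pair in activated Treg, against 44.8% and 55.6% in resting Treg, so the groups overlapped. Of the Atg4 proteases, which trim the Atg8 proteins and release them from membranes, Atg4b led, with 65.2% and 67.2% of the 3 genes per kilobase in activated Treg and 60.3% and 65.0% in resting Treg. Atg4b (0.12 ± 0.17), Atg4c (-0.33 ± 0.48) and Atg4d (-0.03 ± 0.22) did not pass; 19.3% of the exonic bases of Atg4d lie over Kri1 on the opposite strand, a gene of similar level (24.6 and 17.7 CPM in activated Treg, 20.2 and 19.4 CPM in resting Treg).

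The Atg8 family held the member with the smallest p. Gabarapl1 had 18.3 and 22.4 CPM (560 and 453 counts) in activated Treg, against 7.29 and 9.53 CPM (150 and 292 counts) in resting Treg. Both activated libraries lay above both resting ones. The log2 fold change was 1.26 ± 0.28, with an adjusted p of 0.328 by edgeR and 0.0141 by DESeq2. With any 1 library left out the log2 fold change lay between 1.08 and 1.45. Such fits leave 1 library in a group, so no call is read from them, and the DESeq2 call rests on all 4 libraries. Over all alternative fits the adjusted p of Gabarapl1 ran from 0.00419 to 0.641. Its position in mm10 (GENCODE M21) is chromosome 6, 129533160 to 129542346, plus strand, and 28.3% of its exonic bases also belong to 1700101I11Rik on the opposite strand. That transcript had 2 and 4 counts in activated Treg and 0 in both resting libraries, and reads over the shared bases cannot be told apart if strand was not used in counting.

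Marker sums of other cells moved with the groups beside Gabarapl1 and Optn. The plasmacytoid and conventional dendritic cell sums, the B cell and plasma cell sum and the CD8 T and NK cell sum were higher in both activated libraries than in both resting ones, as Gabarapl1 and Optn were. Single markers did not all go with their sums. Of 10 B cell and plasma cell markers tested, 4 had a log2 fold change above 0 and 6 below. Of 7 CD8 T and NK cell markers tested, 5 lay above 0 and 2 below. Of the activated libraries, A had the higher dendritic cell and macrophage sums, and B had more Gabarapl1 and Optn and the higher B cell and CD8 T and NK cell sums. Without activated A the log2 fold change was 1.41 for Gabarapl1 and 2.06 for Optn. The part of these cells in either gene was not tested.

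**Figure D3:**
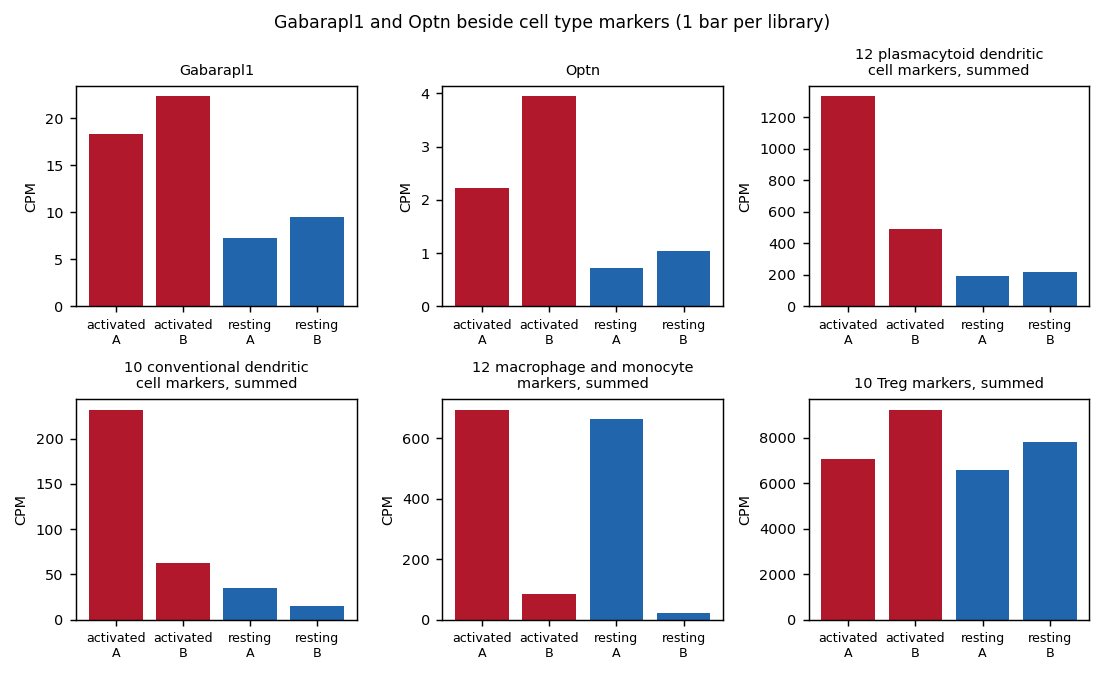
CPM per library of Gabarapl1 and Optn and of summed markers of plasmacytoid dendritic cells, conventional dendritic cells, macrophages and monocytes, and Treg, with 1 bar per library (red activated, blue resting) and linear axes from 0. Gabarapl1 and Optn were highest in activated B, dendritic cell markers in activated A, and macrophage markers in both A libraries.

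The other Atg8 transcripts were more even. Map1lc3b, the LC3B gene that most assays of autophagy follow, was at 309 and 393 CPM in activated Treg and at 331 and 369 CPM in resting Treg, a log2 fold change of 0.00 ± 0.20. Gabarap was at 227 and 353 CPM in activated Treg and at 226 and 275 CPM in resting Treg (0.21 ± 0.27). Gabarapl2 was at 55.5 and 67.9 CPM in activated Treg and at 61.2 and 66.3 CPM in resting Treg (-0.05 ± 0.19). For these 3 genes the groups overlapped. Map1lc3a was scarce, at 0.981 and 1.73 CPM in activated Treg, against 0.826 and 0.914 CPM in resting Treg (0.59 ± 0.55). Per kilobase of merged exons the family was led by Gabarap, with 62.2% and 67.0% of its transcripts in activated Treg and 62.2% and 64.2% in resting Treg. Map1lc3b came next, at 20.7% and 18.3% in activated Treg and at 22.3% and 21.1% in resting Treg. Gabarapl1 made up 4.59% and 3.89% of the family in activated Treg, against 1.83% and 2.04% in resting Treg, so it remained a minor member on this scale. Using the longest transcript as the length, these shares of Gabarapl1 were 3.51% and 2.99% in activated Treg and 1.39% and 1.55% in resting Treg. Because Map1lc3b and Gabarapl2 share 6.01% and 12.2% of their 50-base words with other genes or pseudogenes, their levels are less certain than that of Gabarap, which shares none.

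**Figure D4:**
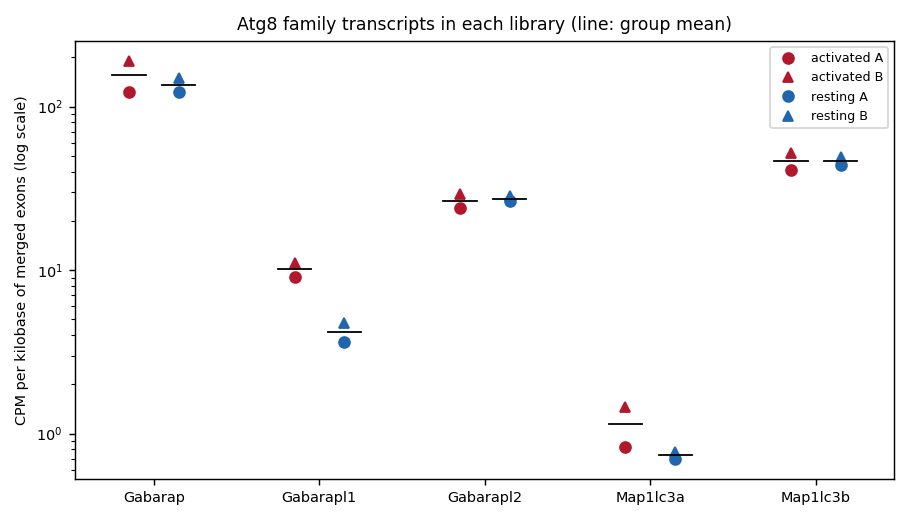
CPM per kilobase of merged exons (log axis) of the 5 Atg8 family genes in each library, activated Treg in red to the left of resting Treg in blue, with a line at each group mean. Gabarapl1, at 9.10 and 11.1 in activated Treg and 3.62 and 4.74 in resting Treg, is the gene whose groups lie farthest apart.

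The cargo receptors held the largest fold change among the members, at a low level. Optn, the optineurin gene, whose protein binds ubiquitin-coated cargo and damaged mitochondria, was at 2.23 and 3.95 CPM (68 and 80 counts) in activated Treg, against 0.729 and 1.05 CPM (15 and 32 counts) in resting Treg. Both activated libraries lay above both resting ones. The fold change was 3.26, a log2 fold change of 1.70 ± 0.53, with an adjusted p of 0.433 by edgeR and 0.276 by DESeq2, and neither tool called it. With any 1 library left out the log2 value lay between 1.25 and 2.06, and its adjusted p ran from 0.0325 to 0.991 over all alternative fits. Per kilobase Optn averaged 0.529 CPM over the 4 libraries, the second lowest level of the 39 genes after Wipi1 (0.148). Its position is chromosome 2, 5020642 to 5064051, minus strand.

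The more abundant ubiquitin-binding receptors did not separate the groups. Sqstm1, which encodes p62, the receptor that is itself degraded with its cargo, was at 77.7 and 93.7 CPM in activated Treg and at 92.5 and 86.6 CPM in resting Treg. Nbr1, a receptor related to p62, was at 121 and 101 CPM in activated Treg and at 112 and 106 CPM in resting Treg. Tax1bp1, a ubiquitin-binding receptor, was at 369 and 257 CPM in activated Treg and at 417 and 312 CPM in resting Treg. Their log2 fold changes were -0.06 ± 0.18, 0.03 ± 0.18 and -0.22 ± 0.26, with groups that overlapped. Of the exonic bases of Sqstm1 17.3% lie over Mrnip on the opposite strand, which had 3.21 and 4.89 CPM in activated Treg and 3.01 and 5.03 CPM in resting Treg. Of the mitophagy receptors, Bnip3l (Nix, -0.19 ± 0.18) was at 181 and 167 CPM in activated Treg, against 214 and 182 CPM in resting Treg, and Bnip3 (-0.11 ± 0.26) at 12.9 and 11.5 CPM in activated Treg and at 14.2 and 12.2 CPM in resting Treg. Bnip3l took 89.2% and 89.5% of the pair per kilobase in activated Treg, against 89.8% in both resting libraries. Bnip3l lay lower in both activated libraries and did not pass, and Bnip3 overlapped. Of the 50-base words of Bnip3 47.2%, and of Bnip3l 20.8%, also occur in other genes or pseudogenes, so how reads were split there is uncertain.

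Both transcription factors of the set had fold changes above 0 without passing. Tfe3, which with Tfeb drives lysosomal and autophagy genes when released from mTORC1, was at 24.0 and 37.1 CPM in activated Treg, against 20.5 and 22.5 CPM in resting Treg, and both activated libraries lay above. Tfeb was at 11.5 and 13.8 CPM in activated Treg and at 7.73 and 11.6 CPM in resting Treg, with overlap. The log2 fold changes were 0.51 ± 0.28 and 0.38 ± 0.33, with edgeR adjusted p of 0.762 for Tfe3 and 0.920 for Tfeb. With 1 library left out the log2 value of Tfe3 ran from 0.15 (without activated B) to 0.80 (without activated A), and that of Tfeb from 0.11 (without resting A) to 0.69 (without resting B). Of the pair, Tfe3 took 56.1% and 62.2% per kilobase of merged exons in activated Treg and 61.8% and 54.2% in resting Treg. With the longest transcript as the length, its shares were 43.6% and 49.8% in activated Treg and 49.5% and 41.7% in resting Treg. Which gene of the pair led thus depended on the length used.

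Related genes outside the 39 were read in 3 lists. Of 41 lysosomal genes, all tested, 30 had a log2 fold change above 0, where 49.1% of all genes did, and the median was 0.13. Before adjustment edgeR's p was under 0.05 for 5 higher genes and 1 lower gene, where it was for 6.3% and 2.61% of all genes. After it edgeR called 0, while DESeq2 called 4 higher and 0 lower, where it called 2.28% and 0.829% of all genes; the 4 were Ctsb, Ctsz, Gaa and Ctsl. Ctsb, the protease cathepsin B and the list's most abundant gene by CPM, was at 1404 and 1263 CPM in activated Treg, against 882 and 686 CPM in resting Treg (0.77 ± 0.20, adjusted p 0.363 by edgeR and 0.0440 by DESeq2). Ctsz, another cathepsin, was at 179 and 201 CPM in activated Treg, against 91.9 and 113 CPM in resting Treg (0.89 ± 0.19, adjusted p 0.321 by edgeR and 0.0114 by DESeq2). Gaa, the lysosomal enzyme that degrades glycogen, was at 55.5 and 56.6 CPM in activated Treg, against 34.2 and 32.9 CPM in resting Treg (0.74 ± 0.18, DESeq2 adjusted p = 0.0470). Ctsl, a further cathepsin named here because DESeq2 called it, was at 88.8 and 28.2 CPM in activated Treg, against 14.1 and 6.69 CPM in resting Treg (2.49 ± 0.67, adjusted p 0.367 by edgeR and 0.00200 by DESeq2), and like the dendritic cell markers it was higher in activated A; their part in this value was not tested. Ctsb was also higher in activated A than in activated B, Ctsz was higher in activated B, and Gaa was nearly equal in both. Npc2, a lysosomal sterol carrier, went the other way, with 388 and 411 CPM in activated Treg, against 615 and 518 CPM in resting Treg (-0.50 ± 0.18, edgeR adjusted p = 0.493). Psap, which encodes the precursor of the saposins, was at 1351 and 706 CPM in activated Treg and at 829 and 624 CPM in resting Treg (0.50 ± 0.35) and passed by neither tool.

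Among 40 other autophagy genes, 39 were tested, with 19 above 0 and a median of 0.00. EdgeR called 0, with a p under 0.05 before adjustment for 1 higher gene and no lower one, against 6.3% and 2.61% of all genes. DESeq2 called 1 higher, against 2.28% of all genes. It was Rubcnl, which encodes Pacer, a partner of the class III PI3 kinase. Rubcnl was at 11.97 and 2.02 CPM in activated Treg, against 0.583 and 0.783 CPM in resting Treg (3.21 ± 0.91, adjusted p 0.392 by edgeR and 0.0124 by DESeq2). Its higher library was activated A, where the dendritic cell markers were also higher, and their part in this value was not tested. Vmp1, a membrane protein of autophagosome formation, was at 250 and 356 CPM in activated Treg and at 147 and 252 CPM in resting Treg. Bcl2, whose product can hold Beclin 1, was at 241 and 93.6 CPM in activated Treg, against 449 and 278 CPM in resting Treg (-1.12 ± 0.50, edgeR adjusted p = 0.652). Tecpr1 (-0.34 ± 0.17), the late endosome GTPase Rab7 (-0.01 ± 0.18) and Trp53inp1 (-0.21 ± 0.26) did not pass either. Of 32 genes of the upstream kinases and their regulators, 16 lay above 0, the median was 0.00, and both edgeR and DESeq2 called 0. Before adjustment edgeR's p was under 0.05 for no higher gene and for 2 lower ones, again beside 6.3% and 2.61% of all genes. Those 2 were Foxo1, at 162 and 127 CPM in activated Treg, against 260 and 227 CPM in resting Treg (-0.75 ± 0.20, edgeR adjusted p = 0.372), and Sesn1, an inhibitor of mTORC1, at 227 and 175 CPM in activated Treg, against 319 and 286 CPM in resting Treg (-0.59 ± 0.20, edgeR adjusted p = 0.489). Rragd, a GTPase that brings mTORC1 to lysosomes, had a log2 fold change of 0.74 ± 0.32 and Sesn2 one of 0.90 ± 0.43, and neither passed.

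The RefSeq promoter table (GRCm38.p6) held 38 windows of 300 bases, from 250 before to 50 after a start site, for 32 of the 39 genes. Both strands were searched for 2 words, GTAAACA, the core of the Foxo site, and CACGTG, the core of the site that Tfeb and Tfe3 bind. Only these exact letters were searched, so a variant of either site would not have been found. The Foxo word occurred in 0 of the 38 windows, where 3.65% of all 32851 windows hold it. The window of Gabarapl1, shown because this gene had the smallest p among the members, is in lower case throughout, since neither word occurs in it (chr6:129532942-129533241, plus strand).
Gabarapl1: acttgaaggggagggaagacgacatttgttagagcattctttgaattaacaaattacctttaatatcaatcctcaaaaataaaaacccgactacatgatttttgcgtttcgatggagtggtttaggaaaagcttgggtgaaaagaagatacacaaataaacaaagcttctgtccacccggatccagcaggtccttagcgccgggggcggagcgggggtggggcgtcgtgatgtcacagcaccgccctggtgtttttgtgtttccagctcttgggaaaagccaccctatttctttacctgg

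The word CACGTG occurred in 5 of the 38 windows, 13.2%, against 7.15% of all windows. The 5 genes were Atg14, Atg3, Atg5, Atg7 and Bnip3. The windows of Atg14 and Atg7 lie inside the genes as annotated in GENCODE M21. Those genes begin at 47570649 (Atg14, minus strand) and at 114643097 (Atg7, plus strand). The 30 bases around each match are given 5′ to 3′ on the strand of the gene, with the word in capitals, because 2 of the genes, Atg14 and Atg7, lay higher in both activated libraries while Atg3 lay lower in both and Atg5 and Bnip3 overlapped.
Atg14 (chr14:47568418-47568447, minus strand): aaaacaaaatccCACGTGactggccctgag
Atg3 first match (chr16:45158723-45158752, plus strand): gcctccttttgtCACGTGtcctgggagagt
Atg3 second match (chr16:45158746-45158775, plus strand): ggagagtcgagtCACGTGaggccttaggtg
Atg5 (chr10:44268313-44268342, plus strand): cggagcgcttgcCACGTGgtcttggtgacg
Atg7 (chr6:114670952-114670981, plus strand): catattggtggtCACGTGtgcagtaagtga
Bnip3 (chr7:138909597-138909626, minus strand): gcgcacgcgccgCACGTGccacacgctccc
None of these 5 genes passed the edgeR test, and over all genes 19.8% lay above and 17.4% below in both activated libraries. No direction is therefore read from the 5 genes, and a match of letters is a description of the window only.

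Libraries of one group differed for many members by more than the groups did. In 28 of the 38 members the 2 activated libraries were farther apart on the log2 scale than the group means, and in 22 the 2 resting libraries were. A gap between 2 single libraries varies more than a gap between 2 means, so it is often larger without any group difference. The same counts were not made over all genes, so they are no result about the members. The authors' deposited regularized log2 values, whose columns carry replicate numbers, show which way the libraries of a group differed. By these values A goes with replicate 1 and B with replicate 2 in both groups, though the count headings do not say so. Ulk1, for instance, was at 8.83 and 9.09 in activated replicates 1 and 2 and at 8.98 and 8.77 in resting ones, the order of its CPM in A and B. The difference of replicate 1 minus replicate 2 had the same sign in activated and in resting Treg in 32 of the 38 members. Of all 14235 genes tested, 10367 had the same sign in both groups too. The difference correlated between the groups with Pearson's r = 0.750 across the 38 genes and 0.652 across all 14235 genes. The genes are not independent replicates and share the same 4 libraries. Rb1cc1 was higher in replicate 1, by 0.85 in activated and by 0.44 in resting Treg. Atg16l1 (0.59 and 0.34), Tax1bp1 (0.48 and 0.38), Atg2b (0.42 and 0.51) and Ulk2 (0.37 and 0.51) were also higher in replicate 1, in activated and resting Treg in that order. Gabarap (-0.60 and -0.27), Atg2a (-0.62 and -0.22) and Atg16l2 (-0.51 and -0.22) were lower in replicate 1 of both groups. Gabarapl1 differed by -0.26 and -0.33, small beside its difference of 1.08 between the groups on the same scale. All 12 macrophage and monocyte markers were higher in replicate 1 of both groups; their part in the differences of the autophagy genes was not tested.

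**Figure D5:**
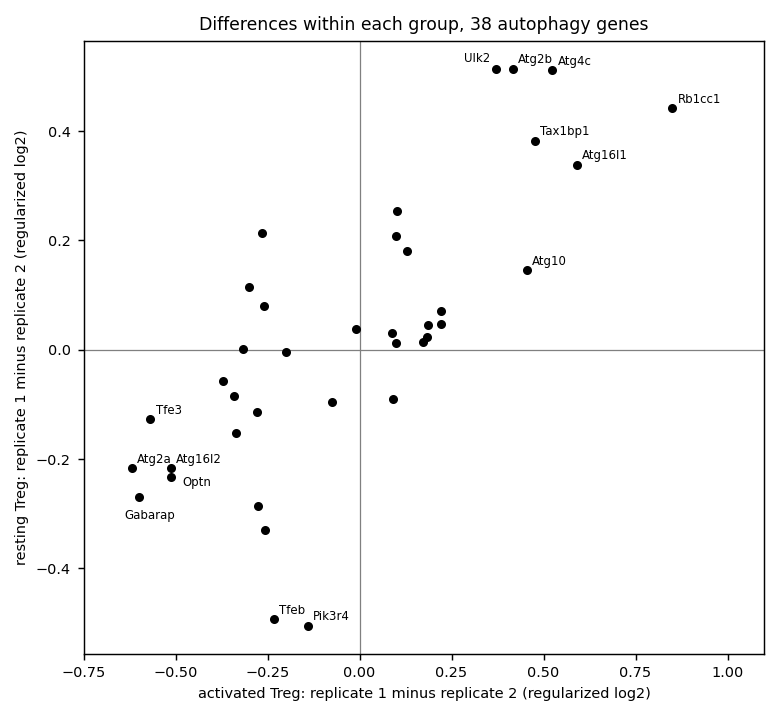
Replicate 1 minus replicate 2 in the authors' regularized log2 values for the 38 autophagy genes tested, activated Treg on the horizontal and resting Treg on the vertical axis, 1 point per gene, with names where either difference exceeds 0.4 in size. Of the 38 points, 32 lie in the quadrants where both differences have the same sign, with Rb1cc1 (0.85 and 0.44) at the upper right. Of all 14235 genes tested, 10367 have the same sign in both groups.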

How the data were processed

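Per the submitters' processing notes, STAR 2.4.0c, featureCounts, DESeq2 and the mm10 build are named, with no role stated for any of them. The annotation release, strand setting and read filters were not given in the sources used here. Raw counts per gene and a table of regularized log2 values were what the authors deposited. The headings of the count table repeat 1 number over both columns of a group, so its columns were assigned to groups only and called A and B; the log2 table carries replicate numbers. Gene symbols, positions and merged exon lengths came from GENCODE M21; 37607 of 38924 identifiers had a symbol.

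Genes were kept by filterByExpr (minimum count 10, minimum total 15), which left 14235, and tested with edgeR 4.0.16 (quasi-likelihood F-test on group, TMM scaling, R 4.3.3), with Benjamini-Hochberg adjustment over all genes and a threshold of 0.05. Fold changes use a prior count of 2, and each SE was taken as the size of the fold change (log2) divided by √F. CPM are TMM-scaled, and 1 CPM corresponds to 20.3 to 30.6 counts. Reads carry no molecular identifiers. With 2 against 2 an exact permutation test cannot go below p = 0.333 and was not run. EdgeR's common biological variation came to 0.352, on 2 residual and 3.1 prior degrees of freedom.

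Alternatives were DESeq2 1.42.0, its size factors within edgeR, no filter on low counts, limma-voom and limma 3.58.1 on the deposited log2 values, and leaving out each library. The members and all gene lists were chosen with earlier results of these data known. The text names every member, and from each of 3 related lists the 2 genes with the smallest p in each direction and the 2 with the highest CPM, beside Foxo1 and the sort genes; some of these are not reported here. A comparison of Atg8 protein sequences was not run.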

Additional observations from a re-analysis of the deposited data

How the results depend on the processing

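Of the 38 members tested, 19 kept the sign of their log2 fold change in every alternative and 19 turned in at least 1, none of them with a value over 0.33 in size. Where a call or count differed, the cause was not tested. Over all genes edgeR called 0 higher and 0 lower. Without the filter on low counts it called 675 and 177 among 26327 genes. The median log2 fold change over these was 0.12, against -0.01 over the 14235 genes of the main fit, so the 2 medians cover different genes. DESeq2 called 324 and 118. Without 1 library the calls ran from 0 to 334 higher and from 0 to 36 lower, the lowest being without activated A (0 and 0) and the highest without resting A (334 and 36), with 59 and 3 without activated B and 176 and 22 without resting B.

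Of the autophagy genes, 1 was called higher without the filter and 1 by DESeq2 (Gabarapl1 in both). Leaving out 1 library gave a median of -0.025 to 0.090 (-0.058 without the filter), and groups apart in 10 to 18 members above and 9 to 16 below. These were 26.3% to 47.4% and 23.7% to 42.1% of the members, where 30.9% to 38% and 30.0% to 38.9% of all genes were apart, since 1 library against 2 separates more often. The share of Gabarapl1 in its family differed by 2.31 percentage points, and by 1.78 with the longest transcript as length.

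Called higher without the filter were 1 of the other autophagy genes and 3 lysosomal genes, and called lower 1 other autophagy gene and 1 upstream gene. DESeq2 called 1 and 4 higher. Without 1 library, edgeR called 0 to 2 higher in each of these 2 lists. Unadjusted counts of the other autophagy genes were 3 higher and 1 lower without the filter, where 6.27% and 2.1% of all genes were. They were 0 higher by limma-voom (6.35% of all genes) and 1 lower by DESeq2 (2.91% of all genes). The upstream list had 1 higher gene without the filter, beside the same 6.27% of all genes. The lysosomal median was 0.088 without the filter, 0.14 on the regularized log2 values and 0.076 to 0.20 without 1 library, and the upstream median -0.10 to 0.0029.

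The replicate numbers stand for independent animals by the labels and form only 2 pairs, so they were not taken to pair samples, although deviations of same-numbered samples correlated with r = 0.652 across genes. With the replicate block, which leaves 1 residual degree of freedom, limma on the regularized log2 values called 1027 genes higher and 525 lower, and 2 members higher, Gabarapl1 and Optn. The block called 4 other autophagy genes, 7 lysosomal and 1 upstream gene higher, and 1, 1 and 2 lower. Its unadjusted counts were 4 and 2 for the members, 5 and 4 for the other autophagy genes, 12 and 3 for the lysosomal and 3 and 6 for the upstream list, where 13.1% of all genes were higher and 9.85% lower at that threshold. The lysosomal median with the block was 0.14.

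Without 1 library the following ranges crossed 0: Ulk1 -0.053 to 0.25, Ulk2 -0.51 to 0.077, Atg101 -0.20 to 0.091, Pik3r4 -0.20 to 0.35, Atg9a -0.18 to 0.13, Atg2a -0.17 to 0.51, Atg2b -0.53 to 0.057, Wipi2 -0.38 to 0.0013, Atg5 -0.067 to 0.13, Atg16l1 -0.62 to 0.034, Atg16l2 -0.024 to 0.55, Atg4c -0.76 to 0.061, Atg4d -0.21 to 0.13, Gabarap -0.15 to 0.50, Gabarapl2 -0.21 to 0.10, Sqstm1 -0.21 to 0.074, Nbr1 -0.093 to 0.14, Tax1bp1 -0.50 to 0.013 and Map1lc3b -0.19 to 0.18. Wide ranges that kept their sign were those of Rb1cc1 (-0.94 to -0.0089), Atg10 (-0.60 to -0.075), Atg7 (0.15 to 0.50) and Map1lc3a (0.15 to 0.93). Map1lc3b was also below 0 without the filter (-0.035), by limma-voom (-0.0096) and on the regularized log2 values with or without the block (-0.014), and Nbr1 without the filter (-0.0020).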
